A study of Mus musculus with 2 samples.

Results

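Broad domains of RNA polymerase II (Pol II) were described in mouse embryonic fibroblasts by chromatin immunoprecipitation and sequencing (ChIP-seq). They are stretches of at least 10 kb joined from windows that reached set numbers of Pol II reads. Their members were chosen from the reads themselves. Windows of 500 bp on chromosomes 1 to 19 with 12 or more reads in library B4 and 7 or more in library B6 were joined where at most 1 window lay between them, and joined regions of 10 kb or more were kept. Of 41704 joined regions, 729 were members (1.75%). They covered 12.9 Mb of the 68.1 Mb in joined regions, 19% of that length and 0.526% of the 19 chromosomes.

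The 2 samples form 1 group: fibroblasts cultured from mouse embryos, in DMEM with 10% serum, precipitated with the monoclonal antibody 8WG16. The labels give no strain, genotype or treatment and name no separate cultures, so the spread between the libraries may be technical. Library B4 came from a gel slice of 150 to 350 bp and library B6 from one of 150 to 300 bp, on different runs, so slice, run and sample cannot be told apart. Counting each start and strand once, B4 held 17548967 nuclear reads and B6 held 10941174, and RPM means reads per 1000000 of these. No input library was analysed here. Background was taken from windows that held a read in either library and lay at least 10 kb from any window that passed in either. It stood at 0.324 RPM per kb in B4 and 0.159 RPM per kb in B6.

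Pol II transcribes protein-coding genes and many noncoding RNA genes. It is loaded at a promoter, often pauses a short way downstream, then moves through the gene body and past the site where the transcript is cut before it lets go of the DNA. A short tract of Pol II is therefore typical of a promoter, and a long one of a transcribed gene body or of neighbouring active genes. The antibody 8WG16 recognises the heptad repeats at the end of the largest Pol II subunit and prefers them unphosphorylated. ChIP-seq reads come from both strands of the precipitated fragments and do not give the direction of transcription. In the domains the share of reads on the plus strand had a median of 50.0% in B4 and 50.1% in B6.

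Most domains were only a little wider than the 10 kb limit. The median width was 13.5 kb, with quartiles at 11 and 19 kb. In all, 174 domains reached 20 kb, 68 reached 30 kb, 19 reached 50 kb and 4 reached 100 kb. The 77 domains of exactly 10 kb had median densities of 2.39 RPM per kb in B4 and 4.47 in B6, and the 95 regions of 9.5 kb, just outside the rule, had 2.38 and 4.2. Their highest window lay in the outermost 20% of the width at either end in 36.4% (B4) and 40.3% (B6) of the domains of 10 kb, and in 49.5% and 45.3% of the regions of 9.5 kb.

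Domains were long stretches with a median density above that of narrower joined regions. They held 4.41% of the nuclear reads of B4 (95% Wilson interval 4.40 to 4.42%) and 8.83% of those of B6 (8.81 to 8.84%), 6.62% ± 3.12 on average (SD, n = 2). These intervals cover counting error only. Densities are given as a description, because the reads chose the members. The lowest, median and highest domain had 1.37, 2.63 and 49.7 RPM per kb in B4, and 1.60, 4.95 and 109 RPM per kb in B6. Joined regions of 2 to 9.5 kb had medians of 2.08 RPM per kb in B4 and 3.53 in B6, a difference that was not tested. The median of the domains lay 8.11-fold over background in B4 and 31.0-fold in B6. Density was higher in B6 in 710 domains and higher in B4 in 19, and the median ratio of B6 to B4 was 1.90. Across the 729 domains the log2 densities of the libraries gave r = 0.82 (Pearson) and rho = 0.72 (Spearman). Both values share the sequence and mappability of each domain, and domains are not replicates. Width and density gave a rho of 0.16 in B4 and 0.20 in B6.

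**Figure D1:**
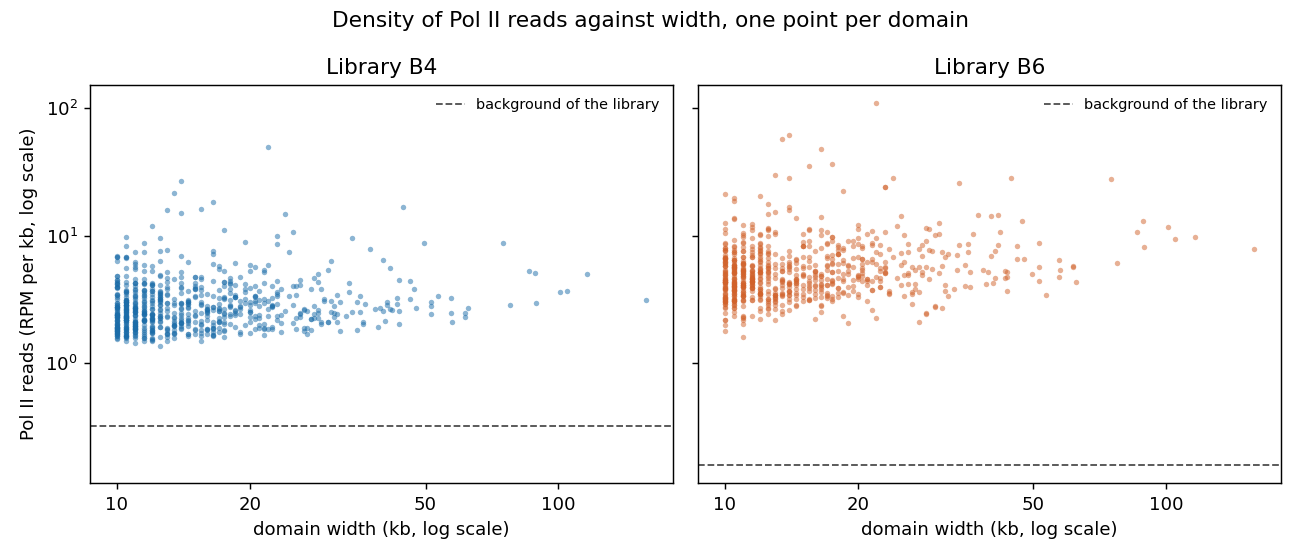
Density of Pol II reads (RPM per kb, log scale) against domain width (kb, log scale) in libraries B4 and B6, 1 point per domain, with the background of each library as a dashed line. All 729 points lie above the background, which the read thresholds of the rule largely build in. The medians are 2.63 and 4.95 RPM per kb, and the 10 widest domains lie between 2.73 and 8.69 in B4 and between 4.33 and 27.5 in B6.

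Calling domains in 1 library alone gave a measure in the other that the choice had not used. B4 alone gave 793 domains, and all 793 were above background in B6, with a median of 4.74 RPM per kb, 29.8-fold over it. The median such domain had 100% of its windows at or above the B6 threshold. B6 alone gave 3777 domains. All 3777 were above background in B4, with a median of 1.30 RPM per kb, 4.0-fold over it, but the median domain had only 36.4% of its windows at or above the B4 threshold. Background leaves out windows near any that passed in either library, so a level above it was likely in advance. Of the 793 domains of B4 alone, 91.2% overlapped a domain called in both, against 15.6% of the 3777 of B6 alone. Every domain called in both lies within a domain of each library alone, so these shares mostly restate the numbers of domains. The number of domains moved with the joining too, to 275 when no gap was allowed, 1778 when up to 4 windows were allowed, and 106 when both thresholds were doubled.

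The rule allows no more than 1 window in a row to miss a threshold inside a domain, so the domains are continuous by construction and the following is a description. Of their 25883 windows, 2254 (8.71%) missed a threshold, 2071 of them in B4 and 371 in B6 (some in both). Of these, 7 had no read in either library. The median domain had 3 such gaps, 77 domains had none, and the highest share was 40% of the windows of a domain.

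The 10 widest domains differed in how level they were. They covered 958 kb in all, and 33 of their 1916 windows missed a threshold. The widest ran over 158 kb of chromosome 2, from 27706501 to 27864500 (coordinates follow the mm8 build), at 3.15 RPM per kb in B4 and 7.80 in B6. Its highest window was the same in both libraries, from 27710501 to 27711000, 4 kb inside the lower edge, with 5.93 and 13.3 RPM against medians of 1.48 and 3.75 RPM per window. Beyond that short peak the level varied little. Cut into 5 equal parts, it stood in B4 at 3.65, 3.17, 2.82, 2.93 and 3.21 RPM per kb, and in B6 at 8.97, 7.79, 6.97, 7.51 and 7.75.

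The second widest, 116 kb of chromosome 10 from 119766001 to 119882000, rose toward higher coordinates instead. Its 5 parts had 4.06, 4.06, 4.90, 6.0 and 5.98 RPM per kb in B4, and 7.81, 8.67, 10.0, 11.9 and 10.6 in B6. Outside it, 4 kb before its lower edge in B4 and 3 kb in B6, stood a separate peak with windows of up to 7.41 RPM and 13.9 RPM, higher than any window inside (5.70 and 11.1 RPM). It was the only one of the 10 widest with a higher window within 10 kb outside in both libraries.

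Chromosome 16 from 45676001 to 45765000 (89 kb) was flat and then stepped up at its end. Its first 4 parts lay between 2.69 and 2.75 RPM per kb in B4 and between 7.28 and 7.59 in B6, and the last part had 4.05 and 10.7. Chromosome 2 from 125137001 to 125199500 (62.5 kb) had a similar step in B4 only. Its last part had 4.14 RPM per kb in B4 against 2.11 to 2.67 in the others, but 4.64 in B6 against 4.07 to 4.64.

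Chromosome 1 from 71513001 to 71588000 (75 kb) was the densest of the 10 widest, at 8.69 RPM per kb in B4 and 27.5 in B6, and every one of its windows passed both thresholds. Its 5 parts had 7.95, 7.35, 8.69, 8.29 and 11.2 RPM per kb in B4. The libraries placed its highest window at opposite ends, 69.5 kb apart, 1.5 kb from the upper edge in B4 (17.8 RPM) and 3.5 kb from the lower edge in B6 (24.4 RPM).

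The other 5 of the 10 widest had 2.86 to 5.24 RPM per kb in B4 and 6.07 to 13.1 in B6. Chromosome 12 held 104.5 kb from 81077501 to 81182000, with its highest window 3 kb from an edge in B4 and 1.5 kb in B6. Chromosome 6 held 101 kb from 34611001 to 34712000, where the windows from 34710001 in B4 and from 34709501 in B6 were highest, next to each other and near the upper edge. In the other 3 the libraries differed on the place. The highest windows were 43 kb apart on chromosome 15 (77582001 to 77670500, 88.5 kb), 69.5 kb apart on chromosome 13 (63248501 to 63334500, 86 kb) and 36.5 kb apart on chromosome 7 (28594501 to 28672000, 77.5 kb). In B4 the highest window lay within 4 kb of an edge in all 10. In B6 this held for 6 of them, and in the other 4 the highest window lay more than 10 kb inside.

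**Figure D2:**
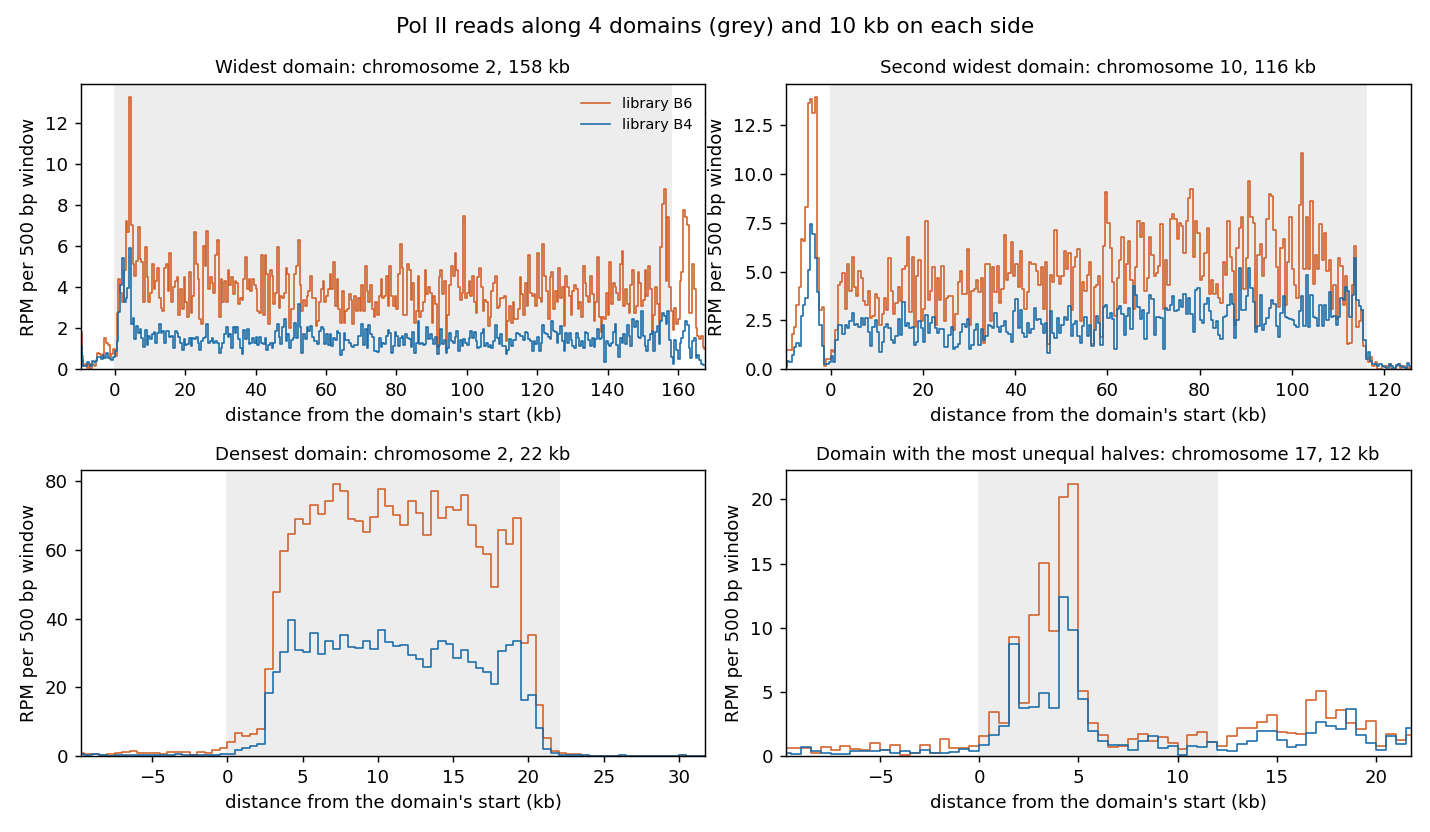
Pol II reads (RPM per 500 bp window) against distance from the domain's start (kb) in both libraries, for the 2 widest domains, the densest and the one with the most unequal sides; grey marks the domain and 10 kb are shown on each side. The widest has a short peak 4 kb inside its lower edge and a flat level after it. The second widest has a peak outside its lower edge. The densest is a plateau when repeated starts are counted once, which limits how high it can read. The last has 85.2% of its reads in B4 and 87.5% in B6 below its midpoint.

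The 8 densest domains were 13 to 44.5 kb wide, against a median of 13.5 kb over all domains. They were shorter than the widest domains described above, which were picked for their width, but not than domains in general. The highest density was on chromosome 2 from 117800501 to 117822500 (22 kb), with 49.7 RPM per kb in B4 and 109 in B6. It was a plateau with lower shoulders: its 5 parts had 26.4, 64.8, 63.5, 57.8 and 36 RPM per kb in B4, and 49.1, 144, 141, 137 and 74.1 in B6. Distinct starts took up 43.6% of its positions and strands in B4 and 59.6% in B6, where repeated starts were counted once. Such counting limits how high the fullest parts can read, and its part in the flat top was not tested. With all reads kept it had 83.9 and 250.1 RPM per kb. A neighbouring pair lay on chromosome 19. The one from 5792501 to 5806500 (14 kb) had 26.6 RPM per kb in B4 and 61.4 in B6, and the one from 5809001 to 5853500 (44.5 kb) had 16.6 and 28.3. In the first of the pair the highest window was 5 kb inside, and in the second 8 kb inside the upper edge, where its upper side held 68.8% of the reads in B4 and 65.8% in B6. The 5 other members of the 8 densest were 13 to 17.5 kb wide, with 11 to 21.4 RPM per kb in B4 and 29.96 to 56.7 in B6. They lay on chromosome 5 from 137344001 to 137357500, chromosome 11 from 86390001 to 86406500, chromosome 3 from 145582001 to 145597500, chromosome 19 from 34304501 to 34322000 and chromosome 1 from 164052001 to 164065000. In all 8 the libraries followed each other closely from window to window, with a Pearson r within the domain of 0.89 to 0.98.

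The 5 domains with the lowest mean density had 1.54 to 2.03 RPM per kb in B4 and 1.60 to 2.18 in B6, and 4 to 7 of their windows missed a threshold. The lowest was on chromosome 7 from 130037001 to 130047000 (10 kb), with 1.66 and 1.78 RPM per kb. A pair lay close together on chromosome 5, from 48357001 to 48368000 and from 48396001 to 48415000. Within these 5 domains the libraries did not share a pattern from window to window (r of -0.11 to 0.29). Over all domains the median r within a domain was 0.68, with quartiles at 0.50 and 0.81. It was 0.77 over the 365 denser domains and 0.54 over the 364 sparser ones. The number of reads differs along with the density, and its part in this was not tested.

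The highest window lay near an end more often than its share of the width. The outermost 20% of the width at each end held 39.8% of all windows of the average domain, and the highest window fell there in 397 domains of B4 (54.5%) and 356 of B6 (48.8%), 51.6% ± 3.98 on average (SD, n = 2). Among the 174 of 20 kb or more the share was 67.2% in both libraries, against 50.5% in B4 and 43.1% in B6 among the 555 under 20 kb. Joined regions of 5 to 9.5 kb had 39.5% and 37.3%, and those of 2 to 4.5 kb had 36.6% and 34.8%, where the outermost parts held 39.4% and 42.3% of the windows. No test was made of these shares, since the same windows were used to join the regions.

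**Figure D3:**
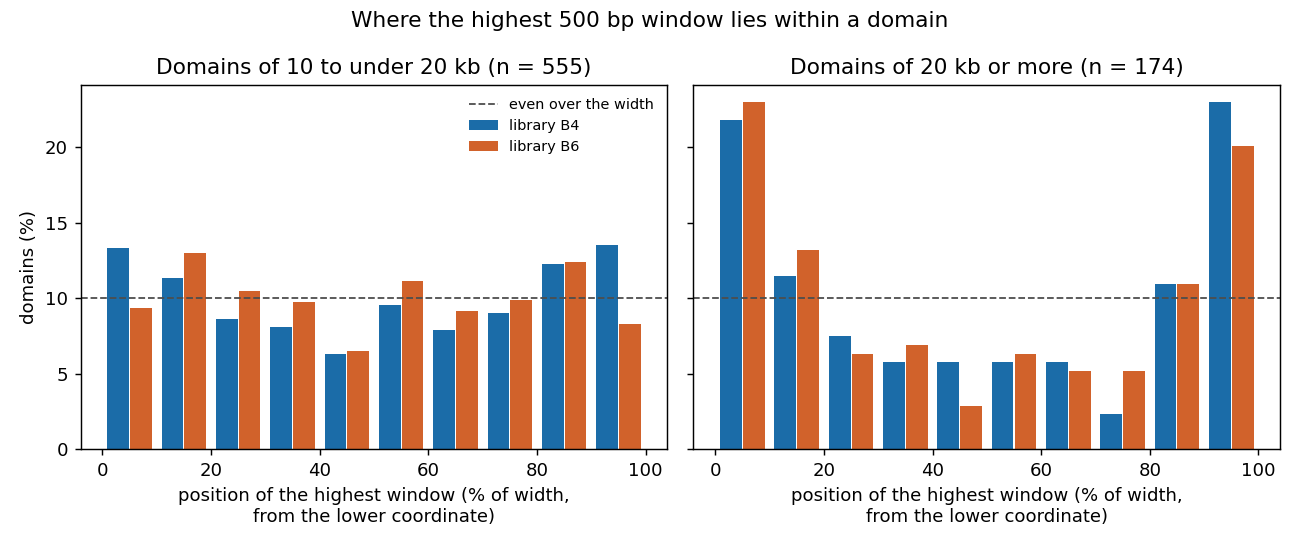
Position of the highest 500 bp window, as percent of the domain's width from the lower coordinate, against the percent of domains in each library; the dashed line is an even spread. Among the 174 domains of 20 kb or more both ends are filled and the middle is thin, with 67.2% in the outermost 20% at either end in each library, while the 555 narrower domains are closer to even.

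The libraries found the same highest window in 260 domains (35.7%), windows at most 1 kb apart in 405 (55.6%) and windows over 5 kb apart in 141 (19.3%). In 290 domains the highest window was near an end in both libraries, and in 238 of these (82.1%) it was the same end. Read at the place where the other library was highest, the window stood at a median of 2.13 times the domain's median window in B4 and 2 times in B6. The highest 10% of the domains exceeded 5.43 in B4 and 4.23 in B6. In the denser domains these medians were 2.72 and 2.41, and in the sparser ones 1.68 and 1.70. A still higher window lay within 10 kb outside in 151 domains of B4 (20.7%) and 154 of B6 (21.1%), and in 105 domains (14.4%) in both, 6 and 5.5 kb from the edge at the median.

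Many domains held more reads on one side of their midpoint than on the other, the same side in both libraries. For each domain the reads below and above the midpoint were set against an even split (exact binomial test, two-sided), and p-values were adjusted by Benjamini-Hochberg over all 9789 joined regions of at least 2 kb, with a threshold of 0.01. The rule reads the same from either end, so it did not fix which side was fuller. In B4, 405 domains (55.6%) had unequal sides, against a background of 32.7% of all regions tested. In B6, 387 domains (53.1%) did, against a background of 31.6%. In 296 domains (40.6%) the sides were unequal the same way in both, against a background of 21.6%. All 3 shares were above the background, but the test gains power with reads. The median domain held 698 reads in B4 and 767 in B6, and the median region of 2 to 9.5 kb held 123 and 121. The part of read number in these shares was not tested.

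By width, 211 of the 555 domains under 20 kb (38.0%) and 85 of the 174 of 20 kb or more (48.9%) were unequal in both, against 26.3% of the regions of 5 to 9.5 kb and 18.6% of those of 2 to 4.5 kb. By density, 193 of the 365 denser domains (52.9%) and 103 of the 364 sparser ones (28.3%) were. Of the 10 widest domains, 8 were unequal the same way in both libraries. These tests cover counting error only.

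Of the 296, 141 were fuller toward lower and 155 toward higher coordinates. In 7 domains both libraries passed with opposite sides fuller, in 186 only 1 library passed, and in 240 (32.9%) neither did. Among domains with simulated counts, 15% of those with sides 1.2-fold apart passed in B4, 82% of those 1.5-fold apart and 100% of those 2-fold apart. In B6, 14%, 89% and 100% passed. The simulation made 200 of 9789 regions unequal, while 3201 (B4) and 3098 (B6) passed in the data. The adjustment was therefore stricter in the simulation, and these shares do not give the power in the data. A domain that did not pass may still lean weakly.

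The size of the lean was small. With the fuller side taken from the other library, it held a median of 55.7% of the reads in B4 and 54.8% in B6, 55.2% ± 0.70 on average (SD, n = 2). Regions of 5 to 9.5 kb had 55.0% and 55.8% and those of 2 to 4.5 kb had 55.6% and 56.4%. The median lean of the domains was thus within 2 percentage points of that of narrower regions, a difference that was not tested. In the 296 domains, which were chosen for unequal sides, the fuller side held a median of 61.5% in B4 and 61.7% in B6. The highest window of the same library was on that side in 92.6% and 94.9% of them. This is largely built in, since the reads of that window help to make the side fuller. Over all domains, the highest window of B6 lay on the fuller side of B4 in 77.6%. That of B4 lay on the fuller side of B6 in 71.5%. Leaving out the highest window and 2 windows on each side of it brought the 296 down to 149. Only 130 had a fuller side at least 1.5 times the other in both libraries.

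**Figure D4:**
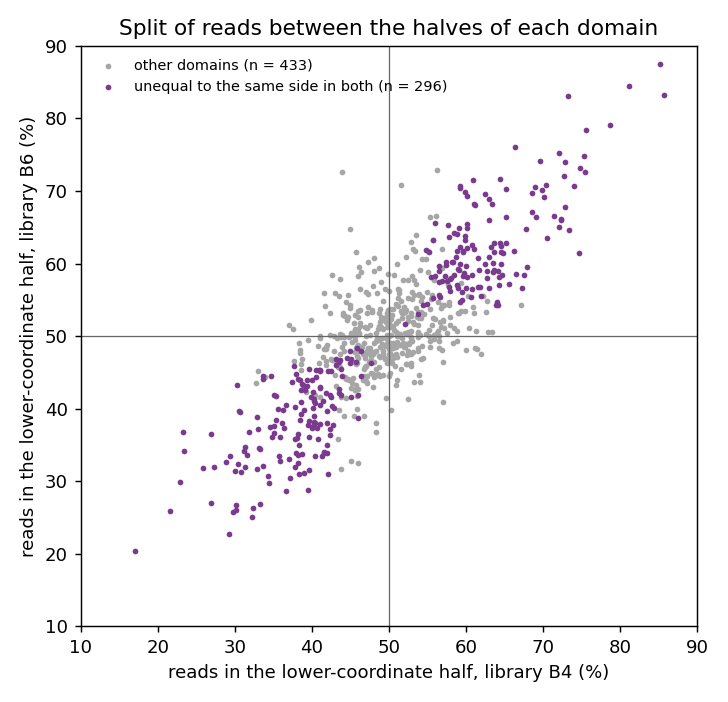
Percent of a domain's reads on its lower-coordinate side in library B4 (x) and in library B6 (y), 1 point per domain. Most of the 729 domains lie close to an even split, the 296 with unequal sides in both libraries spread along the diagonal, and few lie in the corners where the libraries disagree.

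The most lopsided domain was on chromosome 17 from 28054501 to 28066500 (12 kb). Its lower side held 85.2% of its reads in B4 and 87.5% in B6, 86.3% ± 1.61 (SD, n = 2; adjusted p = 1.8e-142 and 2.0e-180 by the exact binomial test). Its highest windows, 12.4 RPM in B4 and 21.2 RPM in B6, were neighbours 4 to 5 kb inside the lower edge, and its median window had only 1.37 and 1.83 RPM. Chromosome 3 from 145582001 to 145597500 (15.5 kb), which was also among the 8 densest, had 85.7% and 83.2% on its lower side. On chromosome 7 the lower side of the domain from 45323001 to 45335500 held 81.2% and 84.4%, and that of the domain from 109308501 to 109332000 held 78.7% and 79.0%. On chromosome 5 the domain from 143159501 to 143173500 was fuller above its midpoint, with 82.9% and 79.6%. All 5 had unequal sides the same way in both libraries, and 4 of them were under 20 kb wide.

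Of the 5 evenest domains with at least 500 reads, by the mean of the libraries, 1 was the 39.5 kb of chromosome 1 from 165075501 to 165115000. Its lower side held 51.4% of the reads in B4 and 48.7% in B6 (adjusted p = 0.42 and 0.40 by the exact binomial test). Its levels were 2.70 and 5.16 RPM per kb. Chromosome 12 from 110039501 to 110063000 (23.5 kb) held 50.2% and 49.9% above its midpoint, chromosome 4 from 104700501 to 104711500, also among the 5 sparsest, held 50% and 50%, and chromosome 19 from 47344501 to 47361000 held 48.8% and 51.5% below its midpoint. The fifth, chromosome 16 from 55732501 to 55747500, was even only in the mean. Its upper side held 53.8% in B4 and 46.4% in B6 (adjusted p = 0.043 and 0.025 by the exact binomial test, neither under the threshold). In the widest domain of all the fuller side held 52.1% in B4 and 51.7% in B6 (adjusted p = 0.00032 and 0.00031 by the exact binomial test), a small lean that its 8745 and 13481 reads could resolve.

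Along the domain the level fell gently from the fuller end. With the side taken from the other library, the outermost 20% at that end, called the head here, had a median of 1.27 times the level of the outermost 20% at the other end, the tail, in B4 and 1.28 times in B6 (1.27 ± 0.01, SD, n = 2). The ratio was at least 2 in 161 domains of B4 (22.1%) and 146 of B6 (20.03%), and under 1 in 192 (26.3%) and 209 (28.7%). Over the 296 domains with unequal sides, which were chosen for that inequality, its medians were 1.83 and 1.73. The rule ends a domain where the level falls under the thresholds, which limits how steep a fall inside a sparse domain can be.

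Cut into 10 equal parts from the head, the 296 rose from 1.14 times the domain's mean in the first part to 1.33 in the second and fell to 0.69 in the last in B4, with 1.08, 1.33 and 0.67 in B6. In these domains the top of the profile thus lay just inside the edge. The rule puts each edge where windows fall under a threshold, so a lower level at the edge is partly built in. The 240 with unequal sides in neither library stayed between 0.94 and 1.02 in B4 and between 0.90 and 1.04 in B6. Both sets were chosen by the split of these same reads, so the fall and the level profile partly restate that choice. In the 174 domains of 20 kb or more the level fell from 1.13 in the first part to 0.86 in the seventh in B4, and stood at 0.88 in the last. In B6 it was 1.09 in the first part, 1.11 in the second, 0.88 in the seventh and 0.88 in the last.

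Levels at the head and tail edges differed inside and outside the domain. Both windows of the first 1 kb outside miss a threshold by the rule, so levels from 1 to 5 kb outside were used. At the head the median level was 2.22 RPM per kb in the first 1 kb inside and 0.897 outside in B4, and 4.2 and 1.49 in B6. At the tail it was 1.88 inside and 1.37 outside in B4, and 3.56 and 2.33 in B6. The step between these medians was thus 2.48-fold and 2.83-fold at the head, but 1.38-fold and 1.53-fold at the tail. The level outside the tail was above that outside the head in 446 domains of B4 (61.2%) and 456 of B6 (62.6%).

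The contrast was wider in the 296 domains with unequal sides, where the step was 3.44-fold and 4.42-fold at the head and 1.35-fold in both libraries at the tail. In the 240 with unequal sides in neither library it was 1.39-fold and 1.37-fold at the head and 1.22-fold and 1.24-fold at the tail. Both sets were chosen by the split of these same reads, so part of this contrast is built in. All these levels were above the background of 0.324 and 0.159 RPM per kb. Background leaves out windows near any that passed in either library, so this was likely in advance. In the 174 domains of 20 kb or more the median level of the window from 9 to 9.5 kb outside was 1.25 RPM per kb in B4 and 2.38 in B6 beyond the tail, against 0.741 and 0.914 before the head. Another joined region lay within 5 kb of 86.1% of all domains, so the flanks often held one. The part of mappability in the flank levels was not tested.

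**Figure D5:**
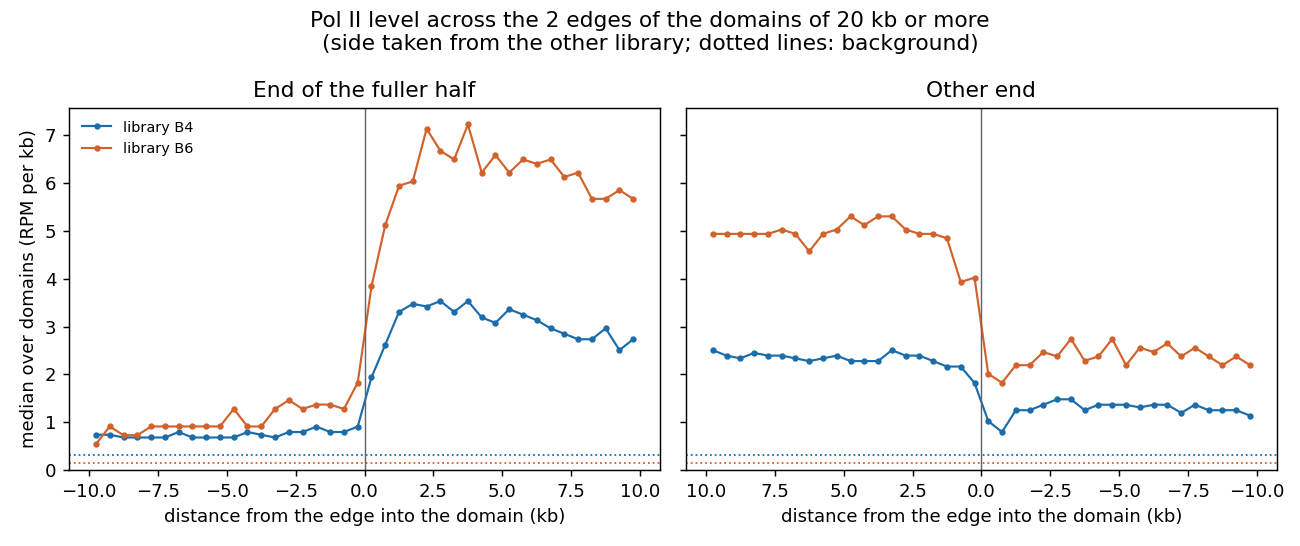
Median Pol II level over the 174 domains of 20 kb or more (RPM per kb) against distance from the edge (kb, positive inside), at the end of the fuller side and at the other end, with the side taken from the other library; dotted lines are the background levels. The level steps up sharply at the first edge and peaks a few kb inside, while beyond the other edge it drops less. A step right at each edge is built in, since the first 1 kb outside misses a threshold by the rule. In the window 9 to 9.5 kb outside the level is 1.25 and 2.38 RPM per kb beyond the other edge, against 0.741 and 0.914 before the first edge.

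Domains often lay side by side. Of 710 neighbouring pairs on a chromosome, 163 (23.0%) were at most 20 kb apart, 109 (15.4%) at most 5 kb and 58 exactly 1 kb, the smallest gap the rule allows, while the median gap was 535.5 kb. A tract on chromosome 1 held 3 domains with gaps of 1.5 and 1 kb, from 165075501 to 165115000, from 165116501 to 165133500 and from 165134501 to 165152500. Their densities were 2.70, 2.92 and 4.39 RPM per kb in B4 and 5.16, 5.84 and 7.15 in B6, and only the last had unequal sides in both libraries. Also on chromosome 1, the domain from 45391501 to 45422500 had 2.81 and 7.42 RPM per kb and its neighbour from 45423501 to 45449000 had 4.06 and 10.0. Of the 163 pairs at most 20 kb apart, 16 had unequal sides in both members. In 12 of these the fuller sides faced away from each other, in 1 they faced each other and in 3 they pointed the same way. A gap falls where the level is lowest, so the rule favours the first arrangement.

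Every one of the 19 chromosomes had domains, 0.30 ± 0.11 per Mb (SD over 19 chromosomes). Per Mb, chromosome 11 had the most (0.56, 68 domains), followed by chromosome 15 (0.45, 47 domains) and chromosome 19 (0.44, 27 domains). By number, chromosome 11 was followed by chromosome 2 with 64 and chromosome 7 with 59. Chromosome 13 had the fewest per Mb, 16 in all and 0.13 per Mb. As a share of all joined regions, domains ranged from 0.941% to 2.30%, highest on chromosome 15.

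Reads placed at 2 sites took no part in the choice of the domains, and they were denser there than over the chromosomes as a whole. They numbered 0.986 per kb of domain in B4 and 1.03 in B6, against 0.381 and 0.201 per kb over the 19 chromosomes. The 5 with the most held 3487 of the 12754 such reads in B4 and 2545 of 13298 in B6, and the median domain had 0.353 and 0.384 per kb, below the mean over the chromosomes in B4 and above it in B6. The domain with the most was on chromosome 11 from 3030501 to 3080000 (49.5 kb), with 2326 and 1214.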

How the data were processed

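The files deposited by the authors list each aligned read as a signed left-most offset (the sign is the strand), with no scaling or other unit. Per the file headers, Bowtie (version not given in the sources used here) placed the reads on mm8 under -n 2, -l 36, -e 70, -k 2, -m 2 and --best. Reads that fit more than 2 sites are therefore missing.

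Offsets were taken as counted from 0 and reads as 36 bases long; no source used here describes the format. Reads placed at 1 site were counted once per start and strand, 5′ ends were shifted 60 bp downstream, and reads were counted in 500 bp windows tiled from position 1. The middle window of a domain with an odd number of windows was left out of the comparison of sides. The domains named were, by rule, the 10 widest, the 8 densest, the 5 sparsest, the 5 most and 5 least lopsided (the latter with at least 500 reads), and the 3 closest neighbouring pairs; of the 58 pairs tied at 1 kb, the first 3 in genome order were taken. Members, lists and tests were chosen with earlier results of these data known. No annotation of mm8 was used here, so no gene is named. With 1 group there was no comparison between groups. Counts and tests used SciPy 1.17.1 and NumPy 2.4.6 under Python 3.11.15, and plots matplotlib 3.10.9. The side test was tried on simulated data with 200 unequal domains per fold size among 9789 regions, where at most 0.99% of its calls were false. The counts were drawn from the binomial model that the test assumes, so a low false share was built in. It says nothing about reads that gather in peaks.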

Additional observations from a re-analysis of the deposited data

Results flagged for a closer look

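Chromosome X, which the rule leaves out, held 5 joined regions of 10 kb or more among 637 (0.785%). They were 15.5 to 28 kb wide. The widest, from 70475001 to 70503000, had 5.62 RPM per kb in B4 and 13.1 in B6, and that from 18304501 to 18325500 had 2.17 and 3.09. They were picked out because they are signal in data outside the comparisons above.

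Reads placed at 2 sites, counted alone with the same thresholds, formed 7 regions of 10 kb or more on chromosomes 1 to 19. The widest was 26.5 kb of chromosome 17 from 14708001 to 14734500, with 2195 such reads in B4 and 3988 in B6 but only 46 and 115 reads placed at 1 site. It was picked out for the same reason.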

How the results depend on the processing

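Of 83 values of 7 results under alternatives, 46 stayed within 1.5 times (counts) or within 1 SD of the libraries (for width, of the medians called in each library alone), and 37 did not. The 729 domains became 275 with no gap allowed, 1778 with gaps of up to 4 windows, 106 with doubled thresholds and 174 at a minimum of 20 kb; leaving out a library gave 793 to 3777. The 296 with unequal sides became 104, 677, 45 and 85 in the same order, 149 without the highest window and its neighbours, 130 with a 1.5-fold minimum, and 314 to 1093 with a library left out. The median width was 15 kb with the wider gaps, 27 kb at the 20 kb minimum and 13.5 to 15.5 kb with a library left out. Median density was 7.98 RPM per kb with doubled thresholds and 1.89 to 3.67 with a library left out, against 3.79 in the main setting. With no gap it was 5.33 and with gaps of up to 4 windows 2.66. Both count as unchanged because the SD of the libraries is wide (1.64). The highest window was near an end in 56.5% with wider gaps, 66.5% with doubled thresholds, 67.2% at 20 kb and 50.8 to 51.3% with a library left out; for the outermost 10% it was 27.4%. The fuller side held 54.3% with no gap, 53.7% with doubled thresholds, 54.3% at 20 kb and 53.5% without the highest window. The head-to-tail ratio, whose SD is very small, was 1.25 with all reads, 1.25 unshifted, 1.24 shifted by 100 bp, 1.25 with displaced windows, 1.25 with no gap, 1.30 with wider gaps, 1.27 with doubled thresholds, 1.26 with reads at 2 sites added, 1.31 at 20 kb, 1.2 without the highest window and 1.23 to 1.29 with a library left out; it stayed above 1 in all of these. Of 296 values for 37 named domains, 280 stayed within 1 SD, 16 moved and 0 turned. Only the sides of domains unequal the same way in both libraries could count as turned. Among the others the fuller side could change. In the densest domain the mean share of the upper side went from 50.7% to 49.3% with all reads kept. No paired analysis was possible because the libraries form a single group.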

Other observations

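The 19 domains that were denser in B4 than in B6 had medians of 3.01 RPM per kb in B4 and 2.88 in B6, against 2.63 and 5.0 in the other 710. The largest differences were a neighbouring pair near the start of chromosome 11. The domain from 3081001 to 3100500 had 8.91 RPM per kb in B4 and 4.52 in B6, and that from 3030501 to 3080000, which also held the most reads placed at 2 sites, had 8.82 and 4.97. On chromosome 15, 7 domains covered 123 of the 162 kb between 42839001 and 43001000, and 5 of the 7 were denser in B4. Their levels were 2.23 to 3.99 RPM per kb in B4 and 2.12 to 3.55 in B6. These 19 were grouped after their values were seen.

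In 7 domains the libraries had unequal sides in opposite directions (exact binomial test, Benjamini-Hochberg adjustment). The widest was chromosome 3 from 58501501 to 58558500 (57 kb), where the lower side held 53.2% of the reads in B4 and 43.6% in B6. The domain on chromosome 11 from 3030501 was another, with 44.7% and 55.7%. The others were on chromosomes 1, 4, 8, 9 and 17.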
